A study of Homo sapiens with 22 samples.

Results

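The genes described here are the aminoacyl-tRNA synthetases and the amino-acid genes driven by the transcription factor ATF4, read in 6 human B-cell lymphoma lines before and after treatment with inhibitors of DNA methylation and histone deacetylation. They were chosen by name. Every gene symbol made of 1 capital letter followed by ARS1 or ARS2 was taken, together with EPRS1 and with 15 named genes of the ATF4 pathway. This gave 40 of the 11963 genes measured on the Affymetrix HG-U133A array, through 56 of its 19065 probe sets with a single gene symbol. Of the 40 genes, 15 encode cytosolic synthetases and 10 mitochondrial synthetases. A further 6 are ATF4 and stress genes around it (ATF5, DDIT3, DDIT4, CHAC1 and TRIB3), 4 are amino-acid enzymes (ASNS, PSAT1, PSPH and PHGDH) and 5 are amino-acid transporter genes (SLC3A2, SLC7A5, SLC7A11, SLC1A5 and SLC38A2). Synthetases whose probe set also carries the symbol of a microRNA were outside the rule.

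Burkitt lymphoma gave the lines Daudi, Namalwa and Raji, and diffuse large B-cell lymphoma (DLBCL) gave HT, SU-DHL4 and SU-DHL6. Treated cells received 5-aza-2'-deoxycytidine (5-aza-dC), which blocks DNA methyltransferases, for 6 days and trichostatin A (TSA), which blocks histone deacetylases, at 625 nM for the last 24 h. The dose of 5-aza-dC is 5 µM in the sample titles and 3 µM in the protocol. Untreated cells of the same lines served as controls, and no group received a single drug, so the parts of the 2 drugs cannot be told apart. Each line and treatment had 2 arrays, except HT with 1 untreated and 1 treated array, which gave 11 untreated and 11 treated arrays. The labels do not say whether duplicates were separate cultures, and p-values within a line then reflect only the spread of these samples, which may be technical.

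Aminoacyl-tRNA synthetases load each amino acid onto its tRNA, the step that ties an amino acid to its codon. The cytosolic enzymes serve general translation and the mitochondrial ones, all encoded in the nucleus, serve translation inside the organelle. When uncharged tRNA accumulates or the endoplasmic reticulum is stressed, eIF2 kinases phosphorylate the initiation factor eIF2. General translation then falls while ATF4 mRNA is translated, and ATF4 with a C/EBP partner turns on genes for amino-acid synthesis, amino-acid import and many cytosolic synthetases.

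ATF4 and its C/EBP partners bind a composite element, written TGATGNAAN. It was searched on both strands in windows from 250 bases before to 50 bases after the annotated start of each gene, taken from RefSeq promoters on build GRCh38.p14. A promoter window was found for 35 of the 40 genes. LARS1, VARS1, YARS1, PSPH and SLC7A11 had none in the table. The element was present in 11 of the 35 genes (31.4%), against 327 of 9562 measured genes with a promoter window (3.42%) and 3.61% of all 35116 windows. It was found in 6 of 12 cytosolic synthetase genes, 1 of 10 mitochondrial ones, 1 of 6 of the ATF4 and stress genes, 1 of 3 enzymes and 2 of 4 transporters. A match is a description of letters and not a measured binding site. The 11 matches are printed below 5' to 3', with the element in capitals and the flanking bases in lower case, because they let the members that carry it be set against those that do not. TARS1, NARS1 and SLC3A2 carry it just after the start. In CARS1 it begins 3 bases before the start and runs across it, and in the others it lies before the start.
IARS1, chr9:92293693-92293721, + strand: cgcacggaggTGATGCAACgcgctgaaaa
GARS1, chr7:30594834-30594862, - strand: gctcggagcaTGATGAAATcgccgcgtaa
TARS1, chr5:33440956-33440984, - strand: ctggaccagcTGATGCAATcgaaaggcgc
NARS1, chr18:57621804-57621832, - strand: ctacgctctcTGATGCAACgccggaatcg
AARS1, chr16:70289676-70289704, + strand: ctaacttggcTGATGCAACtgcgagaaaa
CARS1, chr11:3057408-3057436, + strand: tcctagaatcTGATGCAACcgccgccccg
YARS2, chr12:32756076-32756104, - strand: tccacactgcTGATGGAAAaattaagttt
CHAC1, chr15:40953251-40953279, - strand: ctggcaggagTGATGCAACggcaggggag
ASNS, chr7:97872458-97872486, - strand: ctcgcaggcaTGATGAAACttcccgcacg
SLC1A5, chr19:46784893-46784921, - strand: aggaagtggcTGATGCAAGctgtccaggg
SLC3A2, chr11:62881725-62881748, - strand: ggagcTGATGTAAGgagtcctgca

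Values are log2 expression values made by robust multi-array averaging (RMA), and every difference below is treated minus untreated on that log2 scale. Arrays carry no read depth, and their number limits the precision. Array medians lay between 6.72 and 6.91. The arrays of treated SU-DHL4 (interquartile ranges of 2.03 and 1.96) and the second of treated SU-DHL6 (1.99) had the narrowest spread of values, against 2.31 to 2.59 on the untreated arrays. The 3' minus 5' difference of the ACTB control probe sets was 2.08 on that SU-DHL6 array. That measure moved with treatment. Both treated arrays exceeded both untreated ones in Daudi (-0.41 and -0.28 against -0.59 and -0.56), Namalwa (-0.55 and -0.46 against -0.76 and -0.71), SU-DHL4 (0.072 and 0.28 against -0.76 and -0.74) and SU-DHL6 (0.47 and 2.08 against -0.58 and -0.29). In HT it went from -0.41 to 0.0083. Raji was the exception, with -0.47 and -0.57 treated against -0.75 and 0.073 untreated, the last being the highest of the untreated arrays. The part of this measure in the differences below was not tested. In the untreated lines the B-cell markers MS4A1, CD79A, CD79B, PAX5 and CD22 had means of 9.92 to 11.49, and the defining markers of T cells (6.57 to 7.66) and myeloid cells (4.41 to 6.46) lay lower. The highest fibroblast mean was 8.36, that of DCN. DCN read up to 10.93 on untreated arrays, within the range of the B-cell marker means, and changed by -2.44 in SU-DHL4. RMA values have no true zero. All 5 measured B-cell markers fell after treatment, with a median of -2.28 and a summed level of 51.8 to 54.3 before and 38.6 to 47.5 after, while 3 of 4 T-cell markers rose by 0.40 to 0.45, 1 of 4 myeloid markers (CSF1R, 1.17) and 1 of 3 epithelial markers (KRT18, 0.64) rose, and 0 of 3 fibroblast markers passed the test. Their part in the differences described here was not tested. In bulk RNA, fewer cells of a type and less RNA per cell cannot be told apart.

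Treatment lowered more of these genes than it raised. Over the 6 lines 18 of the 40 genes fell, 3 rose and 19 did not pass the test (limma on line means with line as a block, adjusted p under 0.05). Among all genes tested 18.3% fell and 18.7% rose. The median difference was -0.52 for the cytosolic synthetases, -0.44 for the mitochondrial synthetases and -0.53 for the 15 ATF4 pathway genes, against 0.12 for all genes. The share of falls depends strongly on the starting level across the array. Of genes with an untreated mean of at least 9, 55.3% fell and 7.11% rose, while of genes under 9, 11.1% fell and 21.0% rose. Among the members at 9 or above 10 of 20 fell and 0 rose, a share near that background. Among the members under 9, 8 of 20 fell and 3 rose. Genes under 9 reach down to 3.79, and their shares are not matched to the members in level within that class. In sign alone, 12 members were lower in all 6 lines (16.8% of all genes) and 2, DDIT3 and RARS2, were higher in all 6 (25.1%).

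**Figure D1:**
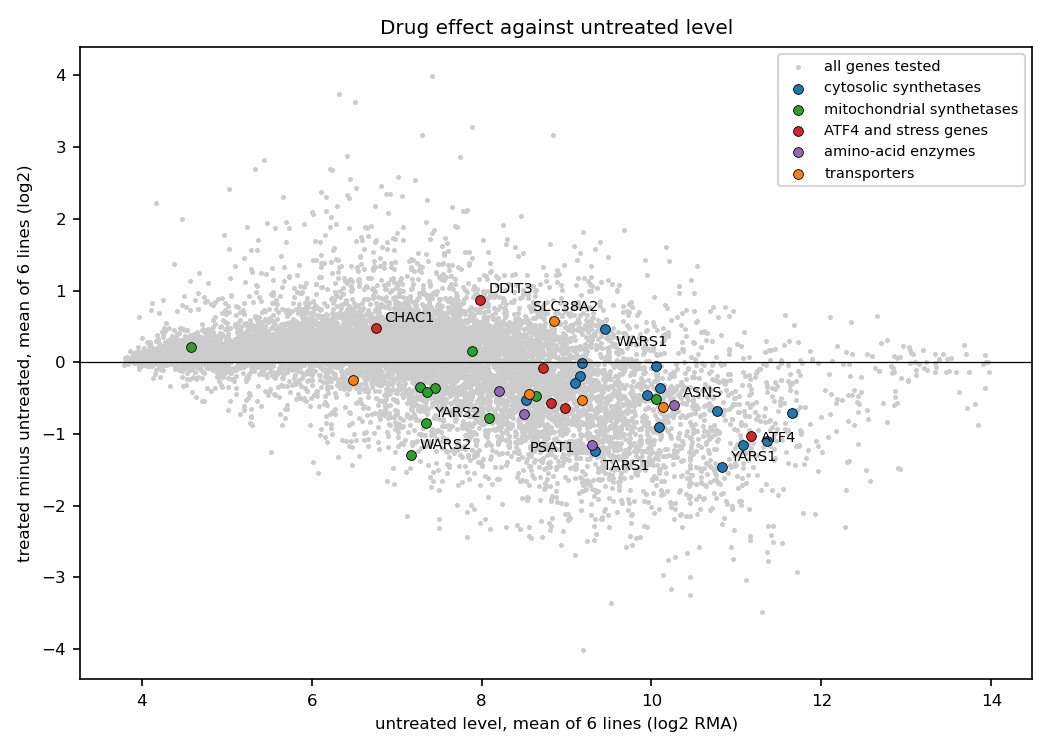
The plot of drug effect against starting level shows the untreated mean of each gene over the 6 lines (x axis, log2 RMA) and its mean treated minus untreated difference (y axis, log2), with all genes tested in grey and the 40 members coloured by role. Of the 40 members 20 have an untreated mean of at least 9, and all of these except WARS1 lie below 0, in a range where 55.3% of all genes fell. The 3 members called higher are DDIT3, CHAC1 and SLC38A2.

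The cytosolic synthetases were among the brighter genes, 14 of 15 having an untreated mean of at least 9. Of the 15, 8 fell, 0 rose and 7 did not pass the test, and among the 14 bright ones 7 fell, near the 55.3% of all genes that bright. The largest fall on the probe sets used was that of YARS1, the tyrosyl-tRNA synthetase. Its untreated arrays ranged from 10.10 to 11.62 (median 10.89) and its treated arrays from 8.65 to 10.12 (median 9.38). The groups touched only at untreated HT (10.10) and the second treated Raji array (10.12). The mean difference was -1.47 ± 0.53 (SD over lines, n = 6; limma adjusted p = 0.00134), a 2.76-fold lower level, with a fall called in every line except HT (-0.54).

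TARS1, the threonyl-tRNA synthetase, went from 8.37 to 10.55 (median 9.63) on untreated arrays to 6.50 to 9.62 (median 8.29) on treated ones. Its ranges overlapped. The lines started at different levels, with SU-DHL4 and HT the lowest untreated, and HT read 8.37 untreated and 8.40 treated. TARS1 changed by -1.24 ± 0.79 (limma adjusted p = 0.0102), from -2.03 in SU-DHL4 to 0.03 in HT. IARS1, the isoleucyl-tRNA synthetase, ranged from 10.70 to 11.59 (median 11.04) untreated and from 9.08 to 10.86 (median 9.73) treated. It was lower in all 6 lines, at -1.16 ± 0.34 (limma adjusted p = 0.000856), and the ranges overlapped at the upper end of the treated arrays.

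GARS1, the glycyl-tRNA synthetase, ranged from 10.49 to 11.95 (median 11.47) untreated and from 9.46 to 11.004 (median 10.28) treated. Its difference was -1.10 ± 0.54 (limma adjusted p = 0.0043), between -1.74 in SU-DHL4 and -0.12 in HT. EPRS1, the fused glutamyl-prolyl-tRNA synthetase, ranged from 9.74 to 10.75 (median 10.07) untreated and from 8.33 to 9.87 (median 8.9996) treated, with overlap only at untreated HT (9.74) and the treated arrays of HT and the first of SU-DHL6 (9.87 and 9.86). It fell by 0.90 ± 0.59 (limma adjusted p = 0.0125), and its other probe sets gave -0.76 and -0.86, both past the threshold.

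The other falls called among the cytosolic enzymes were those of KARS1 (-0.70), NARS1 (-0.68) and VARS1 (-0.52), which load lysine, asparagine and valine. KARS1 had a concordant second probe set (-0.71). After quantile or cyclic loess normalization of the deposited values the calls of EPRS1 (-0.56 and -0.46), KARS1 (-0.33 and -0.30) and NARS1 (-0.27 and -0.24) were lost. The calls of EPRS1 and NARS1 were also lost without SU-DHL4 and the narrow SU-DHL6 array. Those of IARS1 (-0.75 and -0.71) and GARS1 (-0.71 and -0.68) were kept at smaller values. VARS1 did not pass the test in any single line, and its call was lost without the first untreated Raji array or the first untreated SU-DHL6 array and after quantile normalization (-0.35). Its probe sets disagreed in size, the dimmer one giving -1.94. The 7 synthetases that did not pass were SARS1 (-0.46), AARS1 (-0.36), LARS1 (-0.29), HARS1 (-0.19), CARS1 (-0.05), RARS1 (-0.01) and WARS1 (0.46). These load serine, alanine, leucine, histidine, cysteine, arginine and tryptophan. The signs of AARS1, LARS1, HARS1, CARS1 and RARS1 depended on how the arrays were scaled, being above 0 after those normalizations, where RARS1 was called higher. HARS1 differed from 0 past the threshold in SU-DHL4 alone (-1.33, limma adjusted p = 0.000452), with -0.14 to 0.37 in the other lines.

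WARS1, the cytosolic tryptophanyl-tRNA synthetase, which interferon-gamma is known to induce, went in opposite directions. In Namalwa the untreated arrays read 9.77 and 9.64 and the treated arrays 12.25 and 11.73. This was a difference of 2.29 (limma adjusted p = 0.000177), the largest rise of any member in any line. In Daudi the arrays went from 10.49 and 10.52 to 9.76 and 9.68, a difference of -0.79 that did not pass the test (limma adjusted p = 0.102). The effect on WARS1 differed among lines (limma F test over the 6 line differences, adjusted p = 0.00694), and its second probe set gave 2.87 in Namalwa and -1.12 in Daudi. Over all lines the mean of 0.46 ± 1.004 did not differ from 0 past the threshold (limma adjusted p = 0.287).

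**Figure D2:**
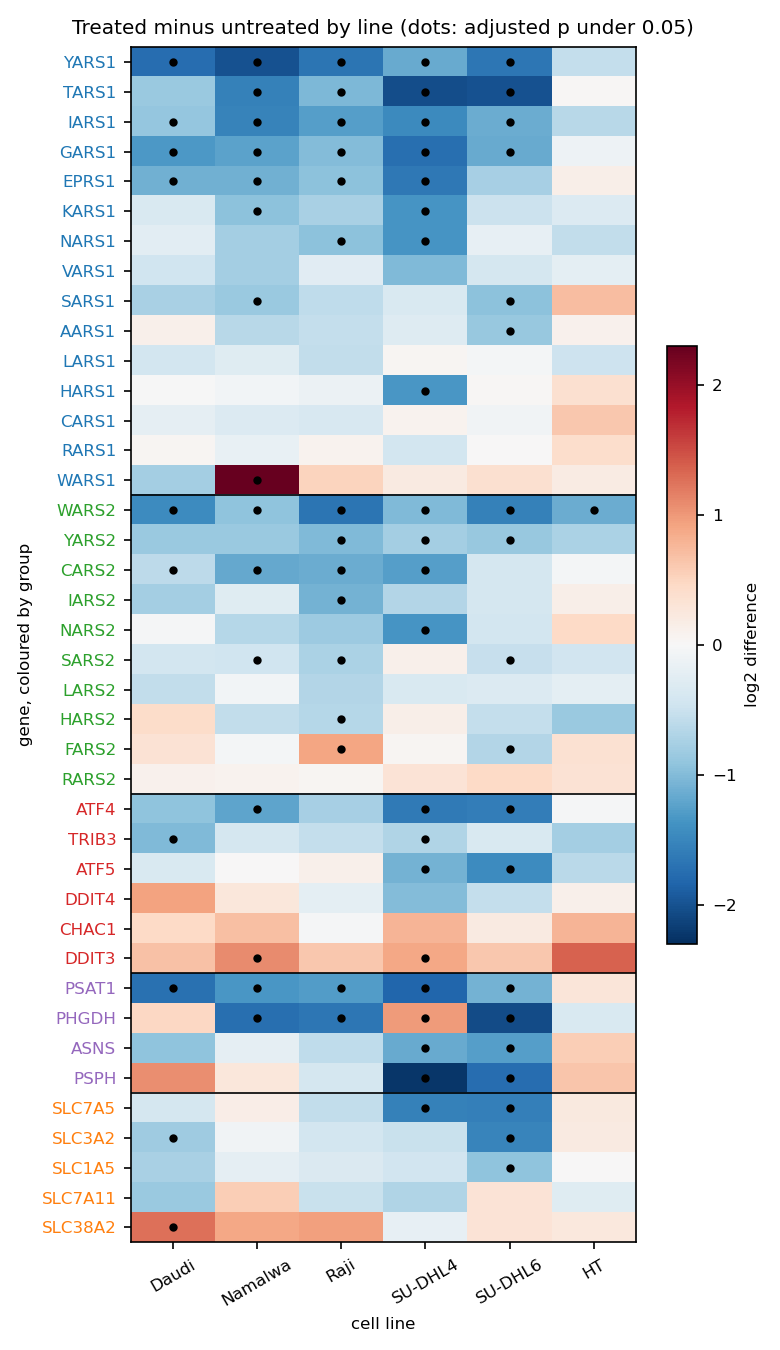
The map of line differences shows treated minus untreated (colour, log2) for each of the 40 genes (rows, coloured by role) in each of the 6 lines (columns), with a dot where the limma adjusted p within that line was under 0.05. Blue rows dominate the synthetases in 5 lines, the HT column is pale with a dot only at WARS2, and WARS1 in Namalwa (2.29) is the deepest red.

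The mitochondrial synthetases started lower, with 9 of 10 under an untreated mean of 9. Of the 10, 6 fell, 0 rose and 4 did not pass the test. Among the 9 dimmer ones 5 fell, where 11.1% of all genes under 9 did. These 5 started at 7.17 to 8.09, while genes under 9 reach down to 3.79. That share is therefore not matched to their level. WARS2, the mitochondrial tryptophanyl-tRNA synthetase, had untreated arrays from 6.53 to 8.004 (median 7.15) and treated arrays from 5.62 to 6.28 (median 5.80). No treated array reached the lowest untreated one. The mean difference was -1.29 ± 0.31 (limma adjusted p = 0.000493), a 2.45-fold lower level, and WARS2 was the only member called in all 6 lines, from -1.67 in Raji to -0.93 in Namalwa.

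YARS2, the mitochondrial tyrosyl-tRNA synthetase, was likewise separated. Its untreated arrays ranged from 7.05 to 7.60 (median 7.43) and its treated arrays from 5.95 to 6.97 (median 6.59). The difference was -0.85 ± 0.10 (limma adjusted p = 0.000419), the most even among lines of the falls in this group, from -1.02 in Raji to -0.74 in HT. On the probe sets used, WARS2 and YARS2 were the only 2 of 40 members with all 11 treated arrays below all 11 untreated arrays. This held for 4.24% of all genes. The dimmer VARS1 probe set, not the one used, was also separated (treated up to 7.56, untreated from 7.62). None of the members had all treated arrays above all untreated ones (2.26% of all genes).

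CARS2, the mitochondrial cysteinyl-tRNA synthetase, went from 7.64 to 8.70 (median 8.08) to 6.72 to 7.82 (median 7.50), with a small overlap. It changed by -0.77 ± 0.50 (limma adjusted p = 0.0131), past the threshold in 4 lines. IARS2, the isoleucyl enzyme and the one bright member of this group, ranged from 9.72 to 10.62 (median 10.02) untreated and 8.88 to 10.44 (median 9.31) treated. Its fall of -0.51 ± 0.43 (limma adjusted p = 0.0365) was past the threshold in a single line, Raji (-1.09). Its call was lost without any one of the 5 lines other than HT, without the first treated Namalwa or the second treated SU-DHL6 array, and after quantile (-0.12) or cyclic loess normalization (-0.058). SARS2, the seryl enzyme, ranged from 7.09 to 7.77 (median 7.27) and 6.61 to 7.26 (median 6.99), at -0.41 ± 0.28 (limma adjusted p = 0.029), a call lost without any one of 5 lines (all but SU-DHL4).

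LARS2, the leucyl enzyme, changed by -0.37 (limma adjusted p = 0.0267) on its brighter and -1.27 on its dimmer probe set, the former call being lost without Daudi, Raji or SU-DHL6 or the second treated Namalwa array. The members of this group that did not pass were NARS2 (-0.47), HARS2 (-0.34), FARS2 (0.15) and RARS2 (0.22). FARS2, the mitochondrial phenylalanyl-tRNA synthetase, split by line. It rose in Raji, from 7.77 and 7.68 to 8.78 and 8.49 (0.91, limma adjusted p = 0.00198), and fell in SU-DHL6, from 8.31 and 8.72 to 7.78 and 7.91 (-0.67, limma adjusted p = 0.00702). The arrays did not overlap within either line, and the effect differed among lines (limma F test adjusted p = 0.00606). Of the other probe sets, the brighter gave 1.35 in Raji and -1.36 in SU-DHL6, and the dimmer -0.13 and -0.10. Over the lines these probe sets averaged -0.29 and -0.02. RARS2, the arginyl enzyme, lay near the floor of the array (4.58 untreated).

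Among ATF4 and the stress genes around it, 2 of 6 fell, 2 rose and 2 did not pass the test. ATF4 mRNA was bright. Its untreated arrays ranged from 10.47 to 11.73 (median 11.19) and its treated arrays from 9.05 to 11.09 (median 10.10). The difference was -1.03 ± 0.60 (limma adjusted p = 0.00818), a 2.04-fold lower level, called in Namalwa (-1.22), SU-DHL4 (-1.63) and SU-DHL6 (-1.60) and close to 0 in HT (-0.02). It was -0.64 after quantile and -0.59 after loess normalization, still past the threshold. The mRNA level does not report ATF4 protein, which is set largely by translation. ATF4 has several processed pseudogenes, and whether its probe set also reads them was not tested.

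DDIT3, which encodes the stress transcription factor CHOP, rose. Its untreated arrays ranged from 7.47 to 9.07 (median 7.82) and its treated arrays from 8.55 to 9.38 (median 8.83). Only the second untreated Raji array reached the treated range. The difference was 0.87 ± 0.30 (limma adjusted p = 0.00178), a 1.83-fold higher level, and positive in all 6 lines, from 0.62 in SU-DHL6 to 1.36 in HT.

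CHAC1, a glutathione-degrading enzyme downstream of ATF4 and CHOP, ranged from 6.19 to 8.98 (median 6.58) untreated and 6.57 to 7.99 (median 7.23) treated. The highest untreated value, 8.98, was again the second untreated Raji array. CHAC1 rose by 0.48 ± 0.33 (limma adjusted p = 0.0244) in 5 of 6 lines, and passed in no line alone. The call was lost under 14 of 36 alternatives. Without the first untreated Raji array the difference was 0.25, and the call was also lost without the first treated Raji or second treated SU-DHL6 array and without Daudi, Namalwa, SU-DHL4 or HT. With arrays centred (0.38) and after cyclic loess (0.33) it was lost too, as in either kind of lymphoma alone and with the 22 arrays as units. TRIB3, a pseudokinase that CHOP and ATF4 induce and that restrains ATF4, went the other way. It ranged from 8.15 to 9.55 (median 9.12) untreated and 7.94 to 8.53 (median 8.39) treated, and was lower in all 6 lines at -0.63 ± 0.24 (limma adjusted p = 0.0038), a call lost after quantile (-0.37) or loess normalization (-0.39).

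ATF5, a relative of ATF4, averaged -0.57 (limma adjusted p = 0.069). It fell in SU-DHL4 (-1.09) and SU-DHL6 (-1.44) and had line differences of -0.63 to 0.12 elsewhere. Its other probe sets gave 0.21 and -0.66, so they disagree in direction. DDIT4, an inhibitor of mTORC1, ranged from -0.99 to 0.92 among lines with a mean of -0.08, whose sign changed with scaling.

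**Figure D3:**
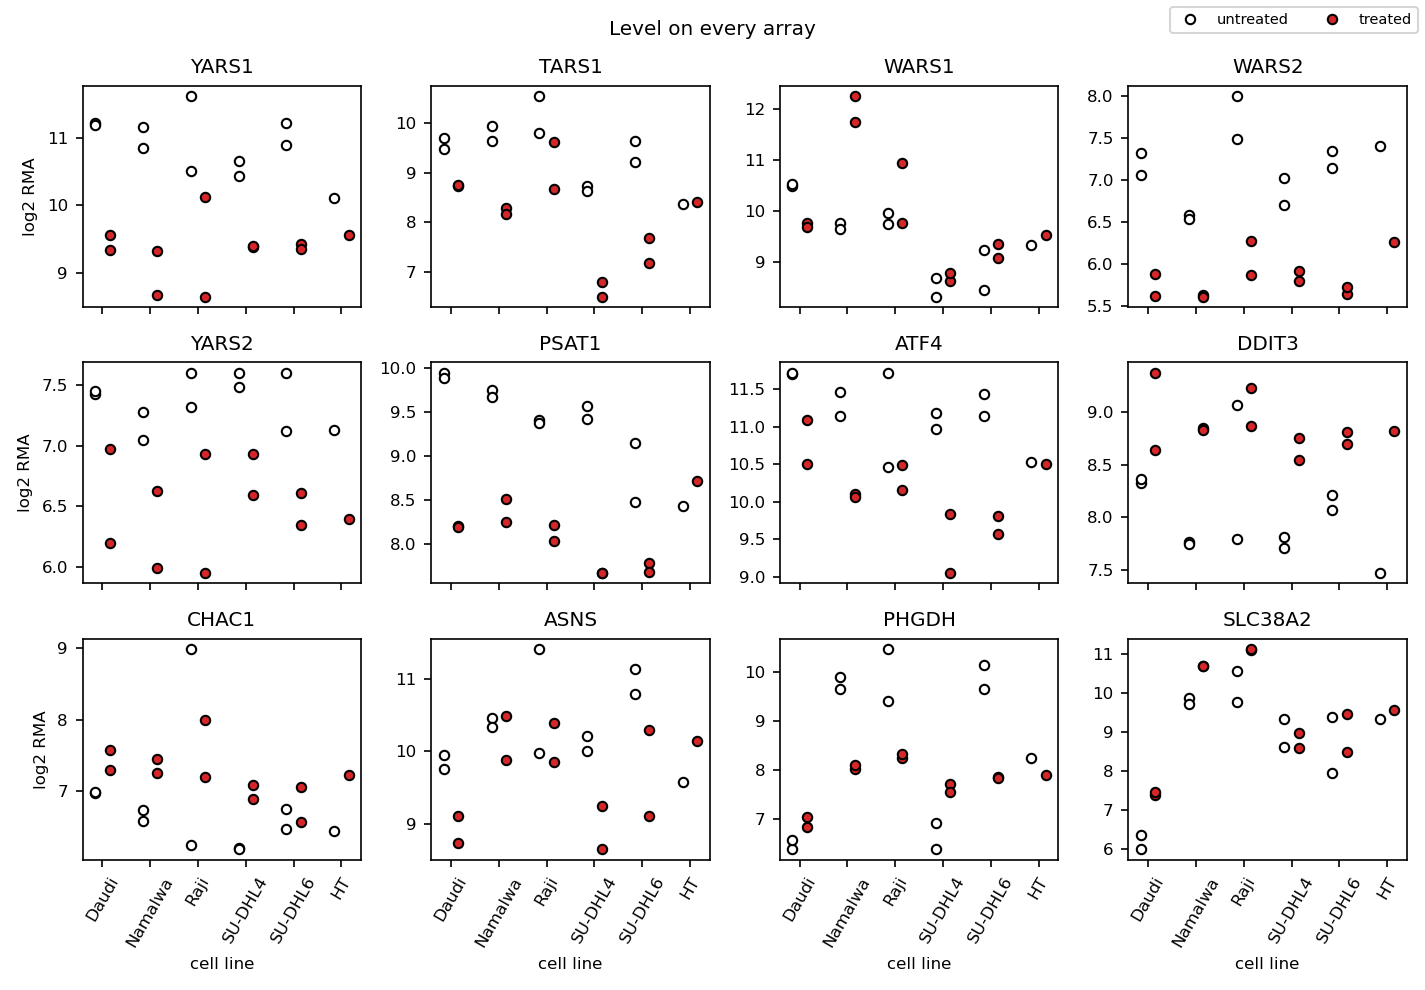
The plot of levels on every array shows log2 RMA values (y axis) for 12 members in the 6 lines (x axis), with open circles for untreated and red circles for treated arrays, 2 per line and treatment except HT with 1. WARS2 and YARS2 separate completely over all lines, DDIT3 is higher and PSAT1 lower within nearly every line, and PHGDH moves towards the middle of its range from both sides.

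Of the 4 enzymes of serine and asparagine synthesis 1 fell over the 6 lines and 3 did not pass the test. PSAT1, the phosphoserine aminotransferase of serine synthesis, ranged from 8.44 to 9.95 (median 9.42) untreated and 7.67 to 8.72 (median 8.20) treated. Its difference was -1.16 ± 0.76 (limma adjusted p = 0.0117), and it fell in all 5 lines other than HT, from -1.83 in SU-DHL4 to -1.08 in SU-DHL6. In HT the single arrays went from 8.44 to 8.72. HT minus the mean of the other 5 lines was 1.73 for PSAT1 (limma contrast of line differences, adjusted p = 0.0058), in a contrast chosen after its values were seen.

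PHGDH, the first enzyme of serine synthesis, fell in 3 lines and rose in 1. Untreated arrays were high in Namalwa (9.66 and 9.91), Raji (9.42 and 10.48) and SU-DHL6 (9.66 and 10.14) and low in Daudi (6.37 and 6.57) and SU-DHL4 (6.38 and 6.90). After treatment all 11 arrays lay between 6.83 and 8.33. The 3 high lines fell, with differences of -1.74 in Namalwa, -1.67 in Raji and -2.06 in SU-DHL6. SU-DHL4 rose by 0.98 (limma adjusted p = 0.00748), Daudi differed by 0.47 (limma adjusted p = 0.284) and HT by -0.34 (limma adjusted p = 0.7). The effect differed among lines (limma F test adjusted p = 0.00044), so the mean of -0.72 ± 1.28 describes no line.

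PSPH, the phosphatase that completes serine synthesis, fell in SU-DHL4 (7.30 and 7.58 to 5.62 and 4.78) and SU-DHL6 (6.84 and 6.48 to 5.28 and 4.54). These differences were -2.24 and -1.75, the former the largest fall of any member in any line on the probe sets used. The dimmer VARS1 probe set gave larger falls, -2.74 in SU-DHL4 and -2.80 in SU-DHL6. In Daudi PSPH read 8.83 and 8.08 untreated and 9.35 and 9.69 treated. This difference of 1.07 did not pass the test (limma adjusted p = 0.123). PSPH has a closely similar pseudogene and its probe sets disagreed, the dimmer one falling over the 6 lines (-0.95), so its values are uncertain.

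ASNS, the asparagine synthetase and a standard readout of ATF4 activity, ranged from 9.57 to 11.42 (median 10.21) untreated and from 8.64 to 10.49 (median 9.85) treated. The groups overlapped broadly. Its mean difference of -0.60 ± 0.69 did not pass the test (limma adjusted p = 0.081), with falls called in SU-DHL4 (-1.16) and SU-DHL6 (-1.27) and 0.57 in HT. Among 1402 genes with a mean absolute line difference of at least 1, those whose 6 line differences lay closest to those of ASNS were GPI (Pearson r = 0.991), PPP1R16B (0.990), VOPP1 (0.978), PPP1R14B (0.978) and FKBP11 (0.975). These are descriptions over 6 points that share their arrays, picked as the highest of many.

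Of the 5 transporter genes 1 rose, 1 fell and 3 did not pass the test. SLC38A2, the sodium-coupled neutral amino-acid transporter SNAT2, differed widely in starting level, from 5.99 to 10.56 (median 9.33) untreated and 7.40 to 11.13 (median 9.48) treated. Daudi was the low line in both states. SLC38A2 rose by 0.58 ± 0.54 (limma adjusted p = 0.0479), with Daudi (1.26) the only line past the threshold. The call was lost under 14 of 36 alternatives, among them leaving out any one of 5 lines (all but SU-DHL4), centring the arrays (0.48), the DLBCL lines alone (0.12) and leaving out any one of 7 single arrays (the first treated array of Namalwa and the first treated or first untreated array of Raji, SU-DHL4 or SU-DHL6). It was 0.84 after quantile and 0.93 after loess normalization. The second probe set gave 0.48.

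SLC1A5, the glutamine transporter ASCT2, ranged from 8.09 to 9.20 (median 8.59) untreated and 7.30 to 8.79 (median 8.09) treated. It fell by 0.44 ± 0.34 (limma adjusted p = 0.035), with SU-DHL6 the only line past the threshold, and its call was lost under 13 of 36 alternatives. These were leaving out any one of 5 lines (all but HT), either kind of lymphoma alone, quantile (-0.25) or loess normalization (-0.27), and leaving out the first treated or first untreated Namalwa array, the second untreated Raji array, or SU-DHL4 with the narrow SU-DHL6 array. SLC3A2, the shared heavy chain, and SLC7A5, the light chain of the leucine transporter LAT1, averaged -0.53 and -0.62 and did not pass (limma adjusted p = 0.079 and 0.101). SLC7A5 fell in SU-DHL4 (-1.56) and SU-DHL6 (-1.58). SLC7A11, the light chain of the cystine importer, averaged -0.24, and its 3 probe sets read -0.24, -0.65 and 0.13.

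By line, the members that fell and rose numbered 9 and 1 in Daudi (background 10.2% and 10.8% of all genes), 13 and 2 in Namalwa (13.2% and 10.9%) and 14 and 1 in Raji (10.2% and 5.61%). They numbered 19 and 2 in SU-DHL4 (24.1% and 35.6%), 19 and 0 in SU-DHL6 (16.8% and 16.0%) and 1 and 0 in HT (2.51% and 2.21%). Single arrays moved these counts: without 1 array of its own, the falls numbered as few as 4 in Daudi (first treated or first untreated array left out, with 5.72% or 4.87% of all genes), 8 in Namalwa (second treated or second untreated, 9.54% or 8.81%), 4 in Raji (first treated, 3.42%) and 12 in SU-DHL6 (second treated, 10.5%). The narrow treated arrays named above are those of SU-DHL4 and SU-DHL6, the lines with the largest counts, and their part was not tested. In Namalwa the cytosolic synthetases had a median of -0.79 and the ATF4 pathway genes 0.00, while in SU-DHL6 these medians were -0.49 and -1.08. In HT they were 0.03 and 0.20, with 0.10 for all genes. Single arrays per treatment give HT the least precision. HT minus the mean of the other 5 lines passed the test for PSAT1 alone among the members (0.359% of all genes higher, 0.451% lower).

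The drug effect differed among the 6 lines for 11 of the 40 members, against 20.4% of all genes. Without HT the count was 8, against 22.9%. The 11 were HARS1, TARS1, WARS1, CARS2, FARS2, HARS2, ATF5, PSAT1, PSPH, PHGDH and SLC7A5. Between Burkitt and DLBCL lines, 0 members differed in drug effect and 0 in untreated level (limma on 3 against 3 lines), and 1 gene of all those tested did in each comparison (0.00836%). Comparing 3 with 3 lines leaves little power, and the missing calls do not show that the kinds of lymphoma respond alike.

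The duplicate untreated arrays of Raji disagreed on these genes. The second read higher than the first for 14 of the 15 ATF4 pathway genes, by more than 0.5 for 11 of them (73.3%), as against 7.97% of all genes. CHAC1 read 6.25 and 8.98, ASNS 9.98 and 11.42, ATF4 10.47 and 11.71 and DDIT3 7.80 and 9.07 on the first and second array. Among the cytosolic synthetases 7 of 15 were higher by more than 0.5, led by CARS1 (1.23), YARS1 (1.11) and SARS1 (1.01). Among the mitochondrial ones 1 of 10 was, WARS2 (0.51). VARS1 went the other way, from 9.30 to 7.59, on its brighter probe set. Its dimmer probe set read 8.52 and 8.28, a much smaller gap.

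The members that carry the composite element printed above were all higher on that array, 11 of 11, by more than 0.5 in 8 and with a median gap of 0.74. Of the 24 members with a promoter window and no element 17 were higher, by more than 0.5 in 9 (37.5%), and their median gap was 0.27. These sets also differ in the gene groups they hold. Of the 10 mitochondrial synthetases 1 carries the element, and 1 of the 10 was higher by more than 0.5. The part of gene group in this contrast was not tested. Over all measured genes, 10.4% of those with the element and 8.54% of those without it were higher by more than 0.5. The same array stood apart in the ACTB 3' to 5' measure, and the part of RNA quality in this gap was not tested.

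**Figure D4:**
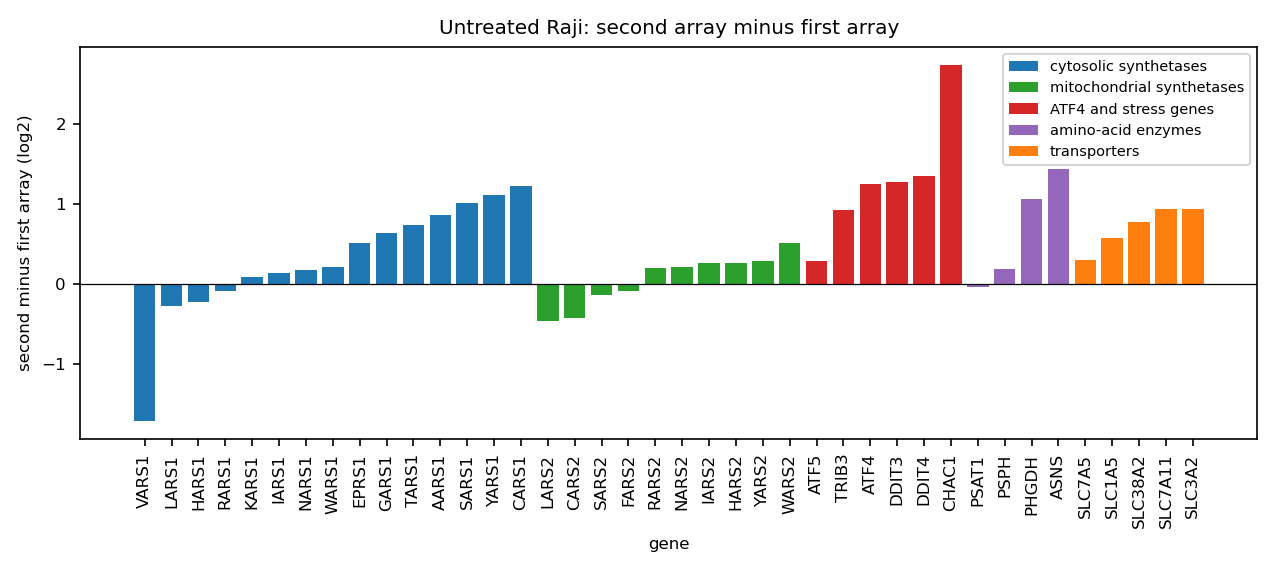
The plot of the untreated Raji pair shows, for each of the 40 members (x axis, coloured by role), the level on the second array minus that on the first (y axis, log2). The ATF4 and stress genes, ASNS, PHGDH and the transporters stand above 0 with CHAC1 highest at 2.73. VARS1, shown by its brighter probe set, is lowest at -1.71.

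The treated Raji pair differed as well, the second array reading higher by more than 0.5 for 9 of 15 cytosolic synthetases (60%) and 2 of 15 ATF4 pathway genes (13.3%), against 11.7% of all genes. In untreated SU-DHL6 the second array was higher for 11 of 15 ATF4 pathway genes, by more than 0.5 for 4 (26.7%), against 7.04% of all genes. The 3' minus 5' difference of the GAPDH control was 0.55 on that array and 0.030 on the first, and its part was not tested. The second untreated Raji array was singled out after the ATF4 pathway genes were seen to read high on it. The direction of their shifts on leaving it out was therefore fixed beforehand. The treated Raji means of CHAC1 (7.60), DDIT3 (9.05), ATF4 (10.32) and ASNS (10.12) lay below that array's values (8.98, 9.07, 11.71 and 11.42). Leaving out that array changed the Raji result. Raji then had 5 members lower and 3 higher in place of 14 and 1, with 5.34% of all genes lower and 2.98% higher in that fit. DDIT3 became 1.26 and CHAC1 1.34 in place of 0.62 and -0.02, while ATF4 moved from -0.77 to -0.14 and ASNS from -0.58 to 0.14. WARS2, CARS2, SARS2, PSAT1 and PHGDH were the 5 still called lower. Over the 6 lines CHAC1 became 0.71, DDIT3 0.98 and ATF4 -0.92, all still past the threshold, and SLC1A5 lost its call (-0.39, limma adjusted p = 0.0637).

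The drug effect was also set beside the element. Of the 11 members that carry it, 6 fell, 1 rose and 4 did not pass the test, with a median of -0.60, against -0.47 for the 24 without it. Among all measured genes 13.5% of those with the element and 19.7% of those without it fell. An E-box, CACGTG, the site bound by MYC, was searched in the same windows after the values were seen. It was present in IARS1, CARS2, ATF4, SLC7A5 and SLC1A5, 5 of 35 members (14.3%), against 12% of measured genes and 7.26% of all windows.

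Genes that work beside the members were read from lists, whose counts are set against the shares of all genes given above for each starting level (falls of 55.3% at 9 or above and 11.1% under 9). Of the synthetase partners 4 of 10 were measured and all 4 fell: QRSL1 (-1.98) and GATB (-0.54), subunits of the mitochondrial amidotransferase that makes glutaminyl-tRNA, FARSA (-1.30), the alpha chain of the cytosolic phenylalanyl enzyme, and AIMP1 (-0.88), a scaffold of the multi-synthetase complex. Of these 4 genes 3 had an untreated mean of at least 9. Of the eIF2 kinases and factors 12 of 14 were measured, of which 7 fell and 2 rose. At 9 or above 5 of 7 fell and under 9, 2 of 5 fell. The falls were led by EIF2S2 (-1.35), EIF2S3 (-0.89), EIF2AK3 (-0.89) and EIF2B5 (-0.79), that is, the beta and gamma subunits of eIF2, the kinase PERK and a subunit of the eIF2 exchange factor. PPP1R15A, which recruits the phosphatase of eIF2, rose by 0.72 and EIF2AK1, the heme-regulated kinase, by 0.42.

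Of 22 other ATF4 targets 19 were measured, of which 8 fell, 1 rose and 10 did not pass. At 9 or above 6 of 6 fell and under 9, 2 of 13 fell. XPOT, the tRNA exporter, changed by -1.96, SLC7A1, an arginine importer, by -1.43 and ALDH18A1, an enzyme of proline synthesis, by -1.36. ATF3, a stress transcription factor, rose by 1.88 ± 0.99 (limma adjusted p = 0.00458). In the unfolded protein response list 4 of 14 fell and 3 rose, with SEL1L (1.08) and CRELD2 (0.86) up and SDF2L1 (-0.96) and PDIA6 (-0.95) down. At 9 or above 2 of 6 fell and under 9, 2 of 8 fell. Of 10 elongation factors 7 were measured and 2 fell, EIF5A (-2.42) and the mitochondrial factor TUFM (-0.75), both among the 6 at 9 or above. DDIT3, CHAC1, ATF3 and PPP1R15A were higher while ATF4, TRIB3 and PSAT1 were lower in the same comparison. The former had untreated means of 7.98, 6.76, 6.63 and 8.07, and 21.0% of all genes under 9 rose. The latter had 11.17, 8.98 and 9.30, and 55.3% of genes at 9 or above and 11.1% under 9 fell. The part of starting level in this split was not tested. CHAC1 lost its call under 14 of 36 alternatives and TRIB3 under 4.

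In the authors' deposited table, which treats the arrays as units, 27 of the members' 40 probe sets used here were lower and 3 higher at an adjusted p under 0.05, against 23.7% and 37.2% of the probe sets used for all genes. The log2 differences of that table equalled differences between the means of the 11 treated and 11 untreated arrays to within 3.55e-14. With lines as units the counts were 18 and 3.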

How the data were processed

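RNA of 6 lymphoma lines was read on 22 HG-U133A arrays. The authors used R 2.10.1 and RMA to make the deposited log2 values, per the submitters' processing notes and the series design text. A second deposited table holds the authors' own p-values with the matching log2 differences. The genome build behind the probe annotation is not given in the sources used here. The 68 control probe sets were left out, and of 22215 others the 19065 with a single gene symbol were used, 1043 having several and 2107 none. Each of 11963 genes was represented by its brightest probe set over the 22 arrays, and dim probe sets were kept. Two-sided tests were made with limma 3.58.1 (R 4.3.3), and p-values were adjusted over all genes by Benjamini-Hochberg with a threshold of 0.05. The effect over lines was fitted on 12 line and treatment means with line as a block, and the effect per line on all 22 arrays with 12 group means, where HT was assumed to vary like the other lines. Differences between Burkitt and DLBCL lines used 6 line values, and the F test among lines and the HT contrast were added after values were seen. The tests were also run on simulated data in which the spread among lines was capped at its median over genes or left out. That run does not measure how they perform on genes with a wider spread. Promoter windows came from RefSeq tables on GRCh38.p14.

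The members and gene lists were chosen with earlier results of these data known. Values were given for up to 5 members per role with the largest change past the threshold, for ATF4 and ASNS, and for members called in opposite directions in different lines. From each other list up to 4 genes with the largest change past the threshold were named. HARS1, WARS1, PSPH, ATF5 and SLC7A5 were described beyond that rule, for their line differences, after their values were seen. Alternatives covered scaling, the choice of probe set, a filter on dim genes, the lines and arrays entering the fit, and the replicate number as a block.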

Additional observations from a re-analysis of the deposited data

Results flagged for a closer look

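In each gene the most extreme of the 6 lines was set against the other 5 by the gap to its nearest neighbour as a share of the whole range. By this measure 4 of 40 sets of line differences and 6 of 40 sets of untreated levels had a line that stood apart. Chance gives about 1 in 20 such sets where the values are independent and normal. The 40 genes share the same lines and arrays, and the share of all genes flagged this way was not computed. The counts are therefore no result about the members. Among the differences treated minus untreated, HARS1 in SU-DHL4 (-1.33) stood below the other lines. SARS1 in HT (0.71), SARS2 in SU-DHL4 (0.12) and PSAT1 in HT (0.28) stood above them. Among the untreated levels HT was low for GARS1 (10.49), SLC3A2 (8.39) and SLC7A5 (9.32). Namalwa was low for LARS2 (6.89), and Daudi was low for NARS2 (8.39) and SLC38A2 (6.18).

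Effects that differed among lines past the test, with calls in opposite directions or in a contrast of 1 line, were those of FARS2 (limma F test adjusted p = 0.00606), PHGDH (limma F test adjusted p = 0.00044) and PSAT1 (HT minus the mean of the other 5 lines, 1.73). FARS2 rose in Raji and fell in SU-DHL6. PHGDH rose in SU-DHL4 and fell in Namalwa, Raji and SU-DHL6.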

How the results depend on the processing

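Over the 6 lines the members kept their direction in 1400 of 1439 gene values under alternatives. Of up to 36 alternatives per gene, 26 left out 1 line or 1 array and reused most of the data. A kept sign in these was likely beforehand, so the count is a weak measure of stability. Medians of the synthetase and ATF4 pathway groups stayed below 0 under every scaling, but their size changed. The middle cytosolic value, that of NARS1, was -0.27 after quantile and -0.24 after cyclic loess normalization, against a deposited median of -0.52. The middle ATF4 pathway value, that of SLC1A5, was -0.25 and -0.27, against -0.53. The middle mitochondrial values, those of HARS2 and LARS2, were both -0.40 and both -0.48, against -0.44. The median of all genes was 0.12 as deposited, 0.02 with arrays centred, 0.08 after quantile and 0.04 after cyclic loess normalization. Over all 11963 genes, 2186 fell and 2238 rose as deposited, and 2434 fell and 1265 rose with arrays centred. In the quantile fit 1707 fell and 1891 rose, and in the cyclic loess fit 1836 fell and 1971 rose. Rises made up 50.6% of all calls as deposited and 34.2% with arrays centred. With arrays centred, 1 member rose (1 ATF4 pathway gene), Daudi had 14 falls and 0 rises and SU-DHL4 had 1 rise. After quantile normalization 11 members fell, 4 of them cytosolic and 2 ATF4 pathway genes, SU-DHL4 had 5 rises, and SU-DHL6 had 11 falls and 1 rise. After cyclic loess 5 cytosolic synthetases and 2 ATF4 pathway genes fell, and Raji, SU-DHL4 and SU-DHL6 had 2, 5 and 1 rises. Signs turned after quantile and loess normalization for AARS1 (0.037 and 0.11), CARS1 (0.35 and 0.42), HARS1 (0.087 and 0.15), LARS1 (0.035 and 0.026), RARS1 (0.32 and 0.35) and DDIT4 (0.088 and 0.15). Testing all probe sets gave 0 rises in Daudi, 2 in Raji and 1 in SU-DHL6. Averaging probe sets gave 0 rises in Daudi and -0.053 for FARS2. In Burkitt lines alone 11 members fell, 3 of them mitochondrial and 2 ATF4 pathway genes, with DDIT4 at 0.32 and PSPH at 0.31. In DLBCL lines alone 5 fell (2 cytosolic, 2 mitochondrial, 1 ATF4 pathway gene) and 1 rose, an ATF4 pathway gene, with CARS1 at 0.20 and FARS2 at -0.093. Fewer lines enter those fits. With both SU-DHL4 treatments and the narrow SU-DHL6 array left out, HARS1 was 0.11, RARS1 0.17, DDIT4 0.24 and PSPH 0.037. With 22 arrays as units 9 ATF4 pathway genes fell. Duplicates of the same number did not deviate together (correlations of -0.12 to 0.03), so the number only names an array. With it as a replicate block 8 ATF4 pathway genes fell, Daudi had 0 rises, and 1 member, ATF5, differed between Burkitt and DLBCL lines in drug effect (1.06, limma adjusted p = 0.0247; 1.56% of all genes). Leaving out 1 line or array, rises over the lines ranged from 1 to 3 (all ATF4 pathway genes; 1 without Daudi, Namalwa, HT, the first treated Raji or the first untreated Raji array) and mitochondrial falls from 3 to 6 (3 without Raji or SU-DHL6). Falls ranged from 4 to 13 in Daudi, 8 to 16 in Namalwa, 4 to 19 in Raji and 12 to 21 in SU-DHL6. Rises ranged from 0 to 2 in Daudi, 1 to 3 in Namalwa, 1 to 3 in Raji, 0 to 3 in SU-DHL4, 0 to 1 in SU-DHL6 and 0 to 1 in HT. CARS1 ranged from -0.18 to 0.055, HARS1 from -0.30 to 0.039, RARS1 from -0.091 to 0.074, FARS2 from -0.000571 to 0.32 and DDIT4 from -0.28 to 0.10. Where no value is given the cause of a change was not tested. Where no share of all genes is given for a fit, its counts are no result about the members.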
